A study of Homo sapiens with 3 samples.

Results

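Cholesterol and fatty acid synthesis genes were examined in Molm13 cells treated with pyrvinium. The set holds 32 genes of the SREBP pathway, taken by Entrez identifier from the 25702 genes in the count files, namely 17 enzymes of the sterol branch, 6 regulators and sterol transport genes, and 9 genes of the fatty acid branch. Molm13 is a human acute myeloid leukemia line with an internal tandem duplication in FLT3. The cells were grown in RPMI medium with fetal bovine serum. The 3 libraries were made from cells kept for 6 h with 50 nM pyrvinium, with 100 nM pyrvinium, or with the vehicle DMSO alone. Pyrvinium pamoate is an anthelmintic agent that the study tested against leukemia cells. With 1 library per condition and 1 cell line, no difference given here has a replicate check, and less RNA per cell cannot be told apart from fewer cells of a kind.

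Sterol regulatory element-binding proteins (SREBPs) are transcription factors held in the endoplasmic reticulum membrane. When membrane sterol is low, their escort SCAP carries them to the Golgi, where proteases release the active factor, and INSIG proteins retain SCAP when sterol is plentiful. SREBP-2, encoded by SREBF2, mainly drives the sterol enzymes, and the SREBP-1 forms encoded by SREBF1 mainly drive fatty acid enzymes, with much overlap between both sets.

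Most genes of both branches were modestly higher in the pyrvinium libraries, HMGCS1 had the highest ratios, and a few enzymes were lower. Of the 32 genes, 26 were higher in the 100 nM library than in DMSO after scaling, and the median log2 ratio was 0.18. HMGCS1 alone among them passed 1.5-fold, and the fatty acid genes FADS1 and ELOVL6 had the lowest ratios. Summed counts of the sterol branch took as large a share of the 50 nM library as of the 100 nM library, and between the doses the 32 genes did not stand out from the background, with 4 intervals above 0 and 3 below.

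The libraries held 22677038 to 24075123 counts. All 32 genes passed the filter of 10 counts in at least 1 library, as did 12879 genes in all. Of 10 myeloid markers, 9 had more than 3 counts in each library, and CD14 had at most 2. Their summed level was 1164 CPM (counts per scaled library size, times 1e6) in DMSO, 1232 CPM at 50 nM and 1298 CPM at 100 nM, but without FLT3 it was 892, 834 and 835 CPM. Of 10 lymphoid and erythroid markers, 3 to 5 were at 0 in a library, CD3E and GNLY in each of them, and the summed level was 28.6 CPM in DMSO, 37.1 CPM at 50 nM and 39.8 CPM at 100 nM. NCAM1, singled out after its values were seen, gave most of these counts (629, 797 and 942). HBB had 16 counts in the 50 nM library and 0 in the others. The part of these markers in the results was not tested.

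The promoters of 5 genes are shown because the results turn on them: HMGCS1 and INSIG1 were higher at both doses, SREBF2 encodes the factor of the sterol branch, and FADS1 and ELOVL6 were lower at both doses. Each is a RefSeq window on GRCh38.p14, from 250 bases before to 50 bases after a transcription start, and of the HMGCS1 windows the upstream one is given. Capitals mark matches on either strand to a sterol regulatory element, spelled TCACNCCAC, to an E-box, spelled CACGTG, to a CCAAT box, or to a GC box, spelled GGGCGG. Adjoining or overlapping matches run together.
HMGCS1 promoter, chr5:43313363-43313662 on the minus strand: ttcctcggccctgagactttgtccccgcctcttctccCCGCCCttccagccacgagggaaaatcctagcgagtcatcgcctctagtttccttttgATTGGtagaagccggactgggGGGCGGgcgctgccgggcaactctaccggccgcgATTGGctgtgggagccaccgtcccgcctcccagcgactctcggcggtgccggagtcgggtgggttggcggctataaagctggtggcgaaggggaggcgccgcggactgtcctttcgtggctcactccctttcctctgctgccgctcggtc
INSIG1 promoter, chr7:155297628-155297927 on the plus strand: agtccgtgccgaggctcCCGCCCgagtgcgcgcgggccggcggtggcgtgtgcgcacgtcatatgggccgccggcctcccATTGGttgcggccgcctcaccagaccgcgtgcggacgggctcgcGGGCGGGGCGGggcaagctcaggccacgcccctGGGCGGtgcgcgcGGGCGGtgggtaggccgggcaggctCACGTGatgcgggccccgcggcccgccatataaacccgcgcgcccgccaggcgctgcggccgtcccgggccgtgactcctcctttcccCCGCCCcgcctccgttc
SREBF2 promoter, chr22:41832855-41833154 on the plus strand: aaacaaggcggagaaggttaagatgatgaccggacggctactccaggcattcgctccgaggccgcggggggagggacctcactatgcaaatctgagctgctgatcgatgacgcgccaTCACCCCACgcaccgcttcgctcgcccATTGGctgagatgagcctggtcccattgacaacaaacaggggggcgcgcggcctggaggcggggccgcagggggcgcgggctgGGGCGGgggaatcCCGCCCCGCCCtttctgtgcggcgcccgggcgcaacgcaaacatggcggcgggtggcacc
FADS1 promoter, chr11:61816954-61817253 on the minus strand: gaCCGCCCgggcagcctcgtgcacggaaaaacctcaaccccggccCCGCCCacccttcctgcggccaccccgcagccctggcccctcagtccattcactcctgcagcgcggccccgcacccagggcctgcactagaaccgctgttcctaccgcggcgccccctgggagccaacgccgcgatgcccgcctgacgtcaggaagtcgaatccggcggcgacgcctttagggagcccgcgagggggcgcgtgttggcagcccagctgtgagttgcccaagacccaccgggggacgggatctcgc
ELOVL6 promoter, chr4:110198566-110198865 on the minus strand: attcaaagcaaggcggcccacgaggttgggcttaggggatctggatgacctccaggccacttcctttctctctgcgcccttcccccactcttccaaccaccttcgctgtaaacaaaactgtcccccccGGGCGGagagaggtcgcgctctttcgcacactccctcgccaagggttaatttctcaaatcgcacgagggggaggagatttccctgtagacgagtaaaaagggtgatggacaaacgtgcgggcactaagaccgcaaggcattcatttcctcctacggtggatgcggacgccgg

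RefSeq windows were matched for 28 of the 32 genes and for 9705 of the tested genes, and a gene was counted when any window of it held the motif. ACAT2, FDFT1, SQLE and FASN had no window. CCAAT, the motif of the factor NF-Y that is known to act beside SREBPs, was found in 21 of the 28 genes, against 43.5% of the tested genes and 39.7% of all 27305 genes with a window. In the sterol branch 12 of 14 genes held it, among them HMGCS1, LSS and SC5DL. EBP, NSDHL and FDPS, which were lower at 100 nM, also held it. CCAAT was absent from FADS1 and ELOVL6, and also from PMVK, CYP51A1, INSIG2, SREBF1 and SCAP, none of which was lower at 100 nM. The GC box was found in 26 of the 28, against 76.1% of tested and 48.3% of all genes with a window. The E-box was found in 5 of the 28 (LSS, SC5DL, INSIG1, SCAP and ELOVL5), against 13.1% of tested and 8.77% of all genes. The sterol element was found in 1 of the 28, SREBF2, against 1.37% of tested and 1.39% of all genes. These are letter matches to 1 spelling of each motif in short windows, so other spellings were not counted. They do not say which factor was bound.

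Levels of different genes were compared as scaled CPM per kilobase of exon. In DMSO the 32 genes spanned 2.29 to 185 on this scale with a median of 23.4, against 9.15 over all tested genes. FDFT1, which encodes squalene synthase, had the highest level at 185, followed by the stearoyl-CoA desaturase gene SCD at 140 and the farnesyl diphosphate synthase gene FDPS at 104. TM7SF2, which encodes a sterol reductase, had the lowest at 2.29, then INSIG2 at 3.59 and SC5DL, the sterol desaturase gene now named SC5D, at 4.23. High and low levels occurred in the same branch, and the median level was 20.6 in the sterol branch, 23.9 among the regulators and 27.9 in the fatty acid branch.

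**Figure D1:**
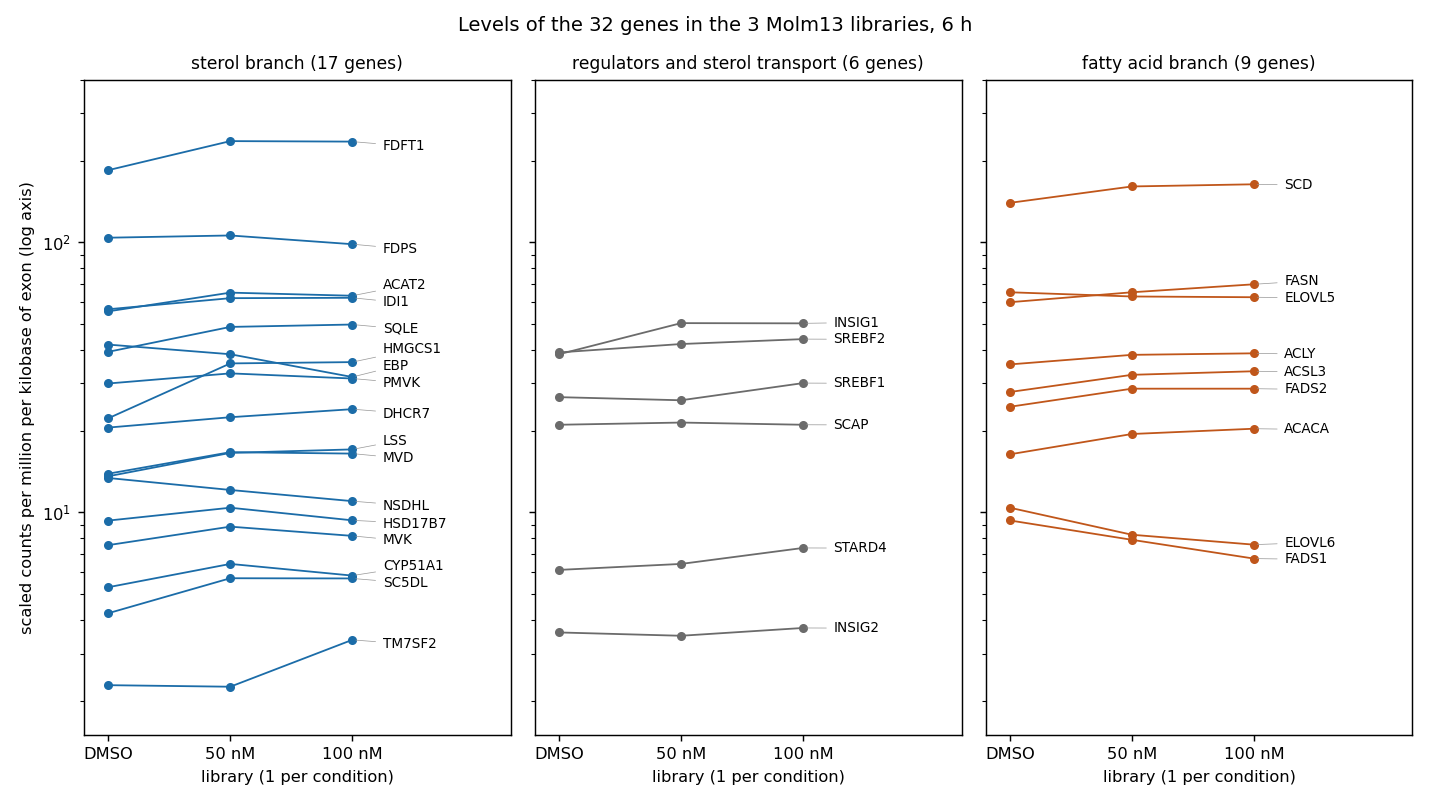
Level of each of the 32 genes in the DMSO, 50 nM and 100 nM libraries (x axis), as scaled CPM per kilobase of exon (log y axis), with 1 point per library and 1 panel per group of genes. HMGCS1 goes from 22.3 in DMSO to 35.6 at 50 nM and 36.0 at 100 nM, whereas FADS1 goes from 9.33 to 7.91 and 6.74.

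The 100 nM library was first set against DMSO. Each log2 ratio has a 95% Clopper-Pearson interval that holds counting error alone. This interval lay above 0 for 20 of the 32 genes and below 0 for 5, whereas over all tested genes it lay above 0 for 24.0% and below 0 for 25.3%. Because such intervals narrow with depth, the shares were also taken over the 10052 genes that reach 80 counts in each library. All 32 genes reach this minimum, which was chosen after seeing the data. The shares were 26.7% above and 30.4% below. Depth was not matched in this way, since TM7SF2 had as few as 81 counts while SCD had at least 17785. With 1.5-fold required as well, 1 of the 32 genes was called higher (HMGCS1) and 0 lower, against 4.97% and 2.69% of all tested genes. Of the 10052 deeper genes, 266 were called higher and 167 lower, and 1 of 32 is close to either background. At 2-fold 0 of the 32 were called in either direction, against 2.68% of all tested genes and 55 of the deeper ones. The median log2 ratio of the 32 was 0.18, and that of all tested genes was -0.0023.

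For 50 nM against DMSO, the interval lay above 0 for 19 of the 32 genes and below 0 for 2, against 18.6% and 18.5% of all tested genes, and 21.3% and 22.0% of the deeper ones. HMGCS1 was again the one gene called at 1.5-fold and 0 were called lower, against 2.37% higher and 1.37% lower of all tested genes. Of the 10052 deeper genes, fewer were called, with 79 higher and 35 lower. At 2-fold 0 of the 32 were called, against 1.48% of all tested genes and 10 of the deeper ones. The median log2 ratio was 0.13, against 0.0007 over all tested genes. Both comparisons share the DMSO library.

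**Figure D2:**
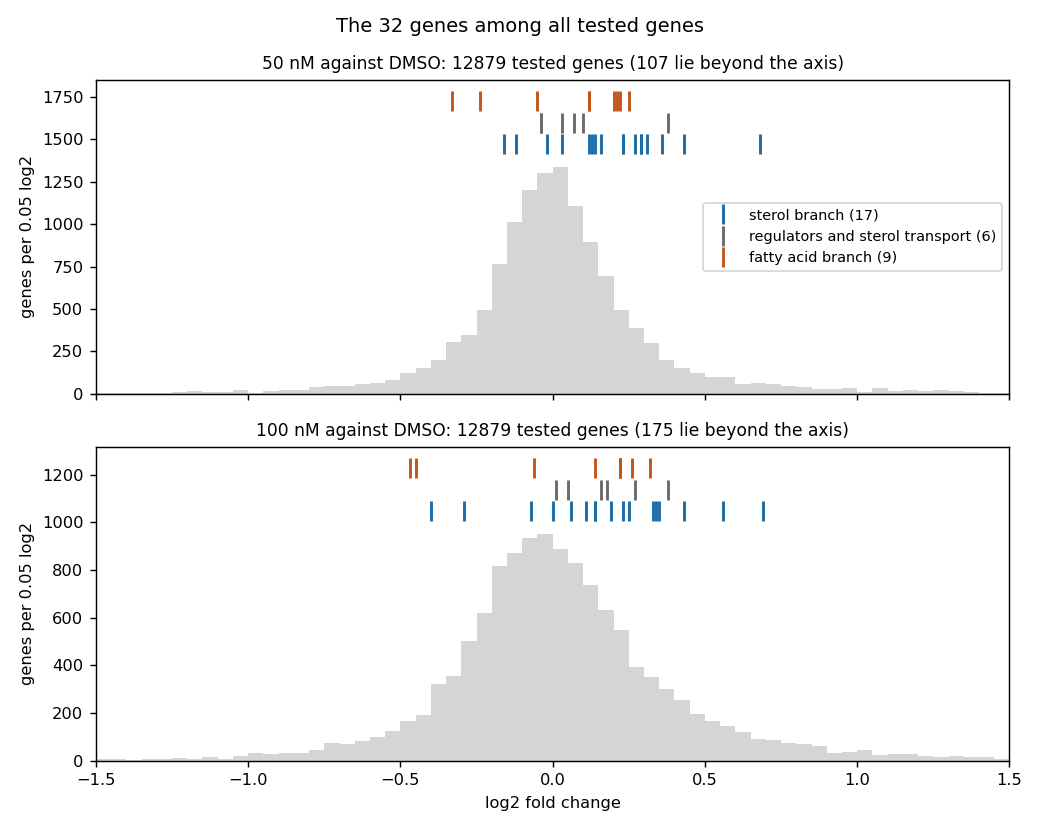
Log2 fold changes (x axis) of all 12879 tested genes as a histogram (y axis, genes per 0.05 log2) and of the 32 genes as ticks coloured by group, for 50 nM and 100 nM against DMSO. Most ticks lie to the right of 0 within the body of the histogram, with medians of 0.13 and 0.18, and HMGCS1 is farthest to the right at 0.68 and 0.69.

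The first steps of the sterol branch join acetyl-CoA units and carry them through mevalonate to farnesyl diphosphate. HMGCS1, the cytosolic synthase of HMG-CoA (Entrez gene 3157, 11 exons, hg19 chr5:43289493-43313595), was counted 1812 times in DMSO, 2828 times at 50 nM and 3050 times at 100 nM. Both pyrvinium libraries were thus well above DMSO and close to each other. The log2 ratio was 0.69 at 100 nM (0.61 to 0.78) and 0.68 at 50 nM (0.59 to 0.76), and 5.73% of tested genes had a higher one at 100 nM. No spread between cultures was measured. If a biological coefficient of variation of 0.1 is assumed, the exact test of edgeR gave HMGCS1 an adjusted p of 0.049 at 100 nM and 0.25 at 50 nM, and at 0.2 the adjusted p was 1.0 at both doses.

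The other genes of these steps had smaller ratios. Counts are given from here in the order DMSO, 50 nM, 100 nM, and the log2 ratio is that of 100 nM to DMSO unless a dose is named. ACAT2, the cytosolic thiolase that starts the pathway, had counts of 1994, 2286 and 2370 and a log2 ratio of 0.19 (0.11 to 0.28). Its exons share 397 bases, 25.6% of its exon length, with TCP1 on the opposite strand (counts 21226, 19072 and 16590), and whether counting used the strand is not given in the sources used here. MVD, the decarboxylase that makes isopentenyl diphosphate, had counts of 578, 680 and 714 and a ratio of 0.25 (0.09 to 0.41). IDI1, the isomerase of that product, had counts of 2796, 3002 and 3209 and a ratio of 0.14 (0.07 to 0.22), so both were modestly higher in each pyrvinium library.

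The mevalonate kinase gene MVK (counts 363, 415 and 409) and the phosphomevalonate kinase gene PMVK (counts 904, 961 and 981) had ratios of 0.11 (-0.09 to 0.32) and 0.06 (-0.07 to 0.19), and neither could be set apart from DMSO at this depth. At 50 nM the interval of MVK lay just above 0 (0.02 to 0.43) and that of PMVK held 0 (-0.01 to 0.26). FDPS, which makes farnesyl diphosphate and has processed pseudogenes that can share its reads, had counts of 3951, 3935 and 3906. Its ratio was -0.07 (-0.14 to -0.01), slightly below DMSO. The median of the 7 genes was 0.14 for 100 nM and 0.23 for 50 nM. Exons of IDI1, FDPS, CYP51A1 and STARD4 also overlap antisense genes, each with at most 16 counts.

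The 3 enzymes from farnesyl diphosphate to lanosterol, the committed part of sterol synthesis, had nearly the same ratio. FDFT1 (Entrez gene 2222, 8 exons, hg19 chr8:11660190-11696818) had counts of 9054, 11316 and 11987. SQLE, the squalene epoxidase and a known control point (Entrez gene 6713, 11 exons, hg19 chr8:126010720-126034525), had counts of 2724, 3289 and 3577. LSS, the lanosterol synthase (Entrez gene 4047, 22 exons, hg19 chr21:47608360-47648738), had counts of 1501, 1791 and 1962. In each of the 3 genes both pyrvinium libraries lay above DMSO. Log2 ratios at 100 nM were 0.35 for FDFT1 (0.31 to 0.39), 0.34 for SQLE (0.26 to 0.41) and 0.33 for LSS (0.23 to 0.43), and at 50 nM they were 0.36, 0.31 and 0.29.

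The 7 enzymes from lanosterol to cholesterol went both ways. SC5DL (Entrez gene 6309, 6 exons, hg19 chr11:121163388-121184119) had counts of 701, 923 and 982 and a log2 ratio of 0.43 at 100 nM (0.29 to 0.57) and 0.43 at 50 nM. DHCR7, the reductase of the last step, had counts of 1270, 1358 and 1547 and a ratio of 0.23 (0.12 to 0.34). CYP51A1, the lanosterol demethylase, had counts of 402, 479 and 462, with an interval above 0 at 50 nM (0.09 to 0.48) and one that held 0 at 100 nM (-0.05 to 0.34). SC5DL and DHCR7 were thus higher in both pyrvinium libraries, while for CYP51A1 the 100 nM library could not be set apart from DMSO.

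EBP, the sterol isomerase (Entrez gene 10682, 5 exons, hg19 chrX:48380164-48387104), was lower. Its counts were 1122, 1008 and 883 and its log2 ratio -0.40 (-0.53 to -0.27), and 8.49% of tested genes had a lower one. NSDHL, a dehydrogenase that helps remove methyl groups from the sterol ring (Entrez gene 50814, 9 exons, hg19 chrX:151999511-152037907), had counts of 508, 445 and 432 and a ratio of -0.29 (-0.48 to -0.10). At 50 nM the log2 ratio was also negative, -0.12 for EBP and -0.16 for NSDHL, with intervals that held 0, and that of EBP lay below 0 when no count filter preceded the scaling.

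HSD17B7, a ketosteroid reductase that has a pseudogene copy able to share its reads, had counts of 328, 359 and 342, and its interval held 0 at both doses (-0.22 to 0.23 at 100 nM). TM7SF2 (Entrez gene 7108, 10 exons, hg19 chr11:64879341-64883707) had counts of 84, 81 and 129, the lowest of the set, and the 100 nM library alone was higher. Its log2 ratio of 0.56 had a wide interval, 0.15 to 0.98. The median of the 7 genes was 0.14 at 100 nM, over a range from -0.40 to 0.56, and 0.13 at 50 nM.

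**Figure D3:**
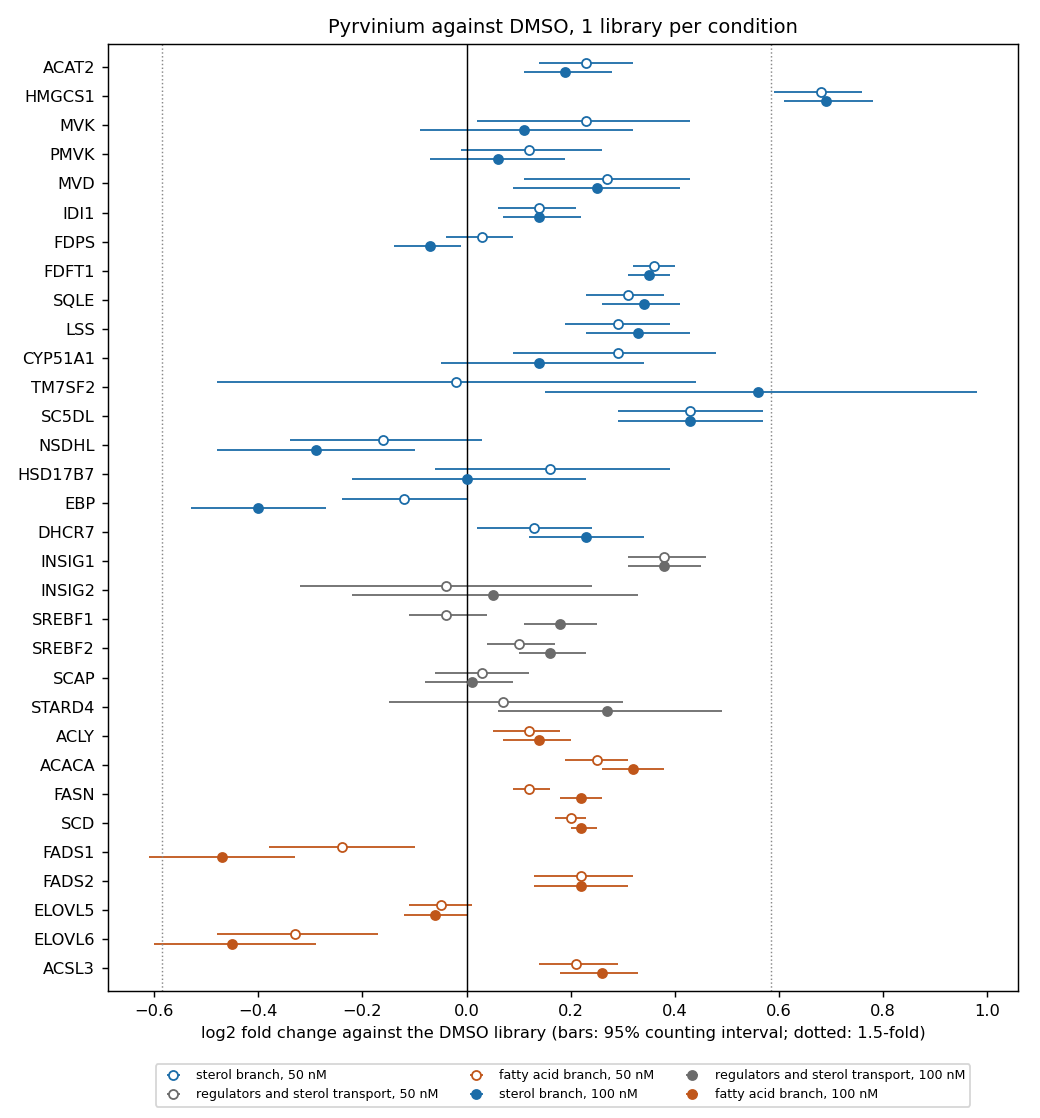
Log2 fold change of each of the 32 genes against DMSO (x axis) at 50 nM (open circles) and 100 nM (filled circles), with bars for the 95% counting interval, in pathway order from top to bottom. FDFT1, SQLE and LSS lie between 0.29 and 0.36 at both doses, and HMGCS1 lies past the dotted 1.5-fold line. EBP, NSDHL, FADS1, ELOVL6 and ELOVL5 lie to the left of 0 at both doses. FDPS does so at 100 nM alone, and TM7SF2, INSIG2 and SREBF1 at 50 nM alone. The bars of ELOVL5, and those of EBP, NSDHL, TM7SF2, INSIG2 and SREBF1 at 50 nM, hold 0.

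Among the regulators, INSIG1 had the highest ratio. INSIG1, which retains SCAP and is itself a known SREBP target (Entrez gene 3638, 7 exons, hg19 chr7:155089486-155101945), had counts of 2747, 3498 and 3719. Both pyrvinium libraries lay above DMSO, by a log2 ratio of 0.38 at 100 nM (0.31 to 0.45) and 0.38 at 50 nM (0.31 to 0.46). Its paralog INSIG2 had counts of 215, 204 and 232 and an interval of -0.22 to 0.33, and no difference was detectable at this depth. SCAP, the escort, had counts of 2077, 2070 and 2169, close in all 3 libraries, and an interval of -0.08 to 0.09.

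The genes of the SREBP factors themselves had smaller ratios than INSIG1. SREBF2 (Entrez gene 6721, 19 exons, hg19 chr22:42229106-42302375) had counts of 3902, 4097 and 4550, with log2 ratios of 0.10 at 50 nM (0.04 to 0.17) and 0.16 at 100 nM (0.10 to 0.23). SREBF1 (Entrez gene 6720, 20 exons, hg19 chr17:17714663-17740325) had counts of 3090, 2939 and 3632, and the 100 nM library alone was higher. Its log2 ratio was -0.04 at 50 nM (-0.11 to 0.04) and 0.18 at 100 nM (0.11 to 0.25). Exons of RAI1 (counts 1284, 952 and 968) cover 2.10% of its exon length on the opposite strand. STARD4, a soluble carrier of cholesterol between membranes, had counts of 321, 330 and 403 and a ratio of 0.27 (0.06 to 0.49), and its interval at 50 nM held 0. The median of the 6 genes was 0.17 for 100 nM and 0.05 for 50 nM.

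In the fatty acid branch, the 3 genes that build palmitate were higher at both doses. ACLY, which makes cytosolic acetyl-CoA from citrate, had counts of 3557, 3770 and 4071 and a log2 ratio of 0.14 (0.07 to 0.20). ACACA, the acetyl-CoA carboxylase that commits carbon to fatty acids, had counts of 4319, 5022 and 5604 and a ratio of 0.32 (0.26 to 0.38). FASN, the fatty acid synthase, had counts of 11770, 12506 and 14263 and a ratio of 0.22 (0.18 to 0.26). For each gene both pyrvinium libraries lay above DMSO.

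The desaturases and elongases split. SCD, which makes monounsaturated fatty acids, had counts of 17785, 19934 and 21624 and a log2 ratio of 0.22 (0.20 to 0.25), and FADS2 had counts of 1796, 2048 and 2180 and a ratio of 0.22 (0.13 to 0.31). FADS1 went the other way. FADS1 and FADS2 encode desaturases of polyunsaturated fatty acids, and their genes lie side by side on chromosome 11, facing away from each other with 11183 bases between them. FADS1 (Entrez gene 3992, 12 exons, hg19 chr11:61567097-61584529) had counts of 956, 791 and 718, a log2 ratio of -0.47 at 100 nM (-0.61 to -0.33) and -0.24 at 50 nM (-0.38 to -0.10), and 6.48% of tested genes had a lower one at 100 nM.

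ELOVL6, which lengthens palmitate (Entrez gene 79071, 4 exons, hg19 chr4:110970229-111119820), was also lower in both pyrvinium libraries. It had counts of 814, 634 and 621, a log2 ratio of -0.45 at 100 nM (-0.60 to -0.29) and -0.33 at 50 nM (-0.48 to -0.17), and 7.17% of tested genes had a lower one at 100 nM. ELOVL5, which lengthens polyunsaturated chains, had counts of 4486, 4226 and 4478, and its interval held 0 at both doses. When no count filter preceded the scaling, the interval of ELOVL5 at 100 nM lay below 0. ACSL3, which activates free fatty acids, had counts of 2819, 3191 and 3502 and a ratio of 0.26 (0.18 to 0.33), and was higher in both pyrvinium libraries.

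The branches were set side by side by their medians, as a description, since genes are not replicates of a condition. In the 100 nM library the median log2 ratio was 0.19 in the sterol branch (10 of 17 intervals above 0 and 3 below) and 0.22 in the fatty acid branch (6 of 9 above and 2 below), a difference of -0.03, sterol minus fatty acid. In the 50 nM library the medians were 0.23 (11 of 17 above and 0 below) and 0.12 (6 of 9 above and 2 below), a difference of 0.11. The small difference at 100 nM depended on the summary. By means the sterol branch was the higher one at both doses (0.18 against 0.04 at 100 nM, and 0.20 against 0.06 at 50 nM), with FADS1 and ELOVL6 at the lower end of the fatty acid branch. By medians without genes whose exons overlap another gene it was also the higher one at 100 nM (0.25 against 0.22).

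By summed counts, the sterol branch took 0.130% (0.128 to 0.131) of the DMSO library, with 95% Wilson intervals in parentheses, 0.155% (0.153 to 0.157) of the 50 nM library and 0.153% (0.152 to 0.155) of the 100 nM library. The fatty acid branch took 0.209% (0.207 to 0.210), 0.230% (0.228 to 0.232) and 0.237% (0.235 to 0.239). The log2 ratio of these sums to DMSO was 0.24 for the sterol and 0.18 for the fatty acid branch at 100 nM, and 0.26 and 0.14 at 50 nM. Both branches thus took a larger share of either pyrvinium library than of DMSO, and the sterol share did not go on to a higher value at 100 nM. These sums lean on few genes, with FDFT1 giving 32.4% of the sterol counts and SCD 37.9% of the fatty acid counts at 100 nM.

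The doses were then compared directly, 100 nM against 50 nM. The interval lay above 0 for 4 of the 32 genes and below 0 for 3, against 12.5% and 14.3% of all tested genes, so that the set did not stand out from the background here. At 1.5-fold 0 of the 32 were called, against 1.46% higher and 0.901% lower, and at 2-fold again 0, against 1.09%. Of the 10052 deeper genes, 31 were called higher and 3 lower at 1.5-fold, and 2 were called at 2-fold. The 4 genes above 0 were TM7SF2 at 0.58, SREBF1 at 0.21 (0.14 to 0.28), FASN at 0.10 (0.06 to 0.13) and ACACA at 0.07 (0.01 to 0.12). The 3 genes below 0 were EBP at -0.28 (-0.41 to -0.15), FADS1 at -0.23 (-0.38 to -0.08) and FDPS at -0.10 (-0.17 to -0.04).

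For HMGCS1, INSIG1 and FDFT1 the interval between the doses held 0. It was -0.06 to 0.09 for HMGCS1, -0.07 to 0.06 for INSIG1 and -0.05 to 0.03 for FDFT1, so differences beyond these bounds were outside the counting error of these libraries. Summed counts had a log2 ratio between the doses of -0.02 in the sterol branch, 0.04 in the fatty acid branch (0.02 to 0.06) and 0.07 among the regulators (0.04 to 0.11).

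**Figure D4:**
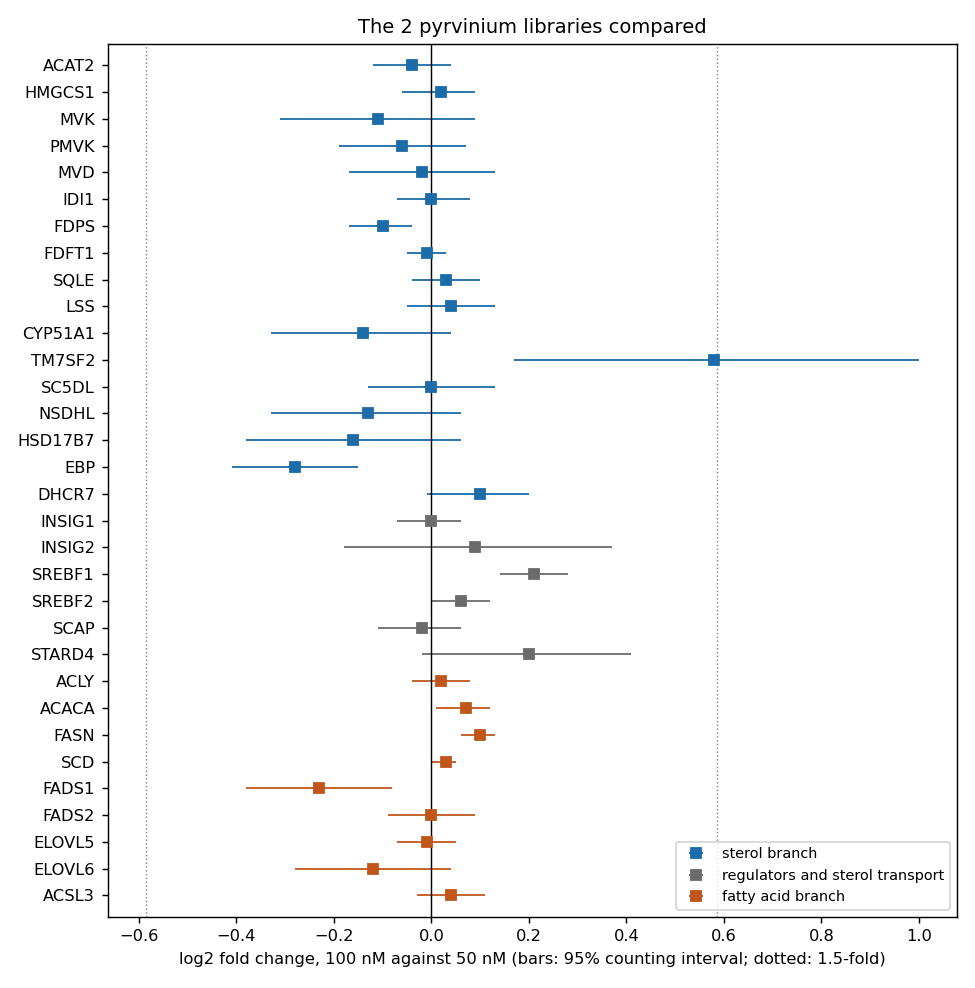
Log2 fold change of each of the 32 genes between the 100 nM and the 50 nM library (x axis), with bars for the 95% counting interval and colours for the group of genes. Most bars cross 0, while SREBF1, FASN, ACACA and TM7SF2 lie to the right, and EBP, FADS1 and FDPS lie to the left.

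Other genes of lipid metabolism were taken from 5 further lists and are given for 100 nM against DMSO. Of 15 genes of other sterol steps, uptake and SREBP processing, 14 passed the filter, with 4 intervals above 0 and 3 below and a median log2 ratio of 0.05. Of 11 genes of the isoprenoid side branch, 5 were above and 3 below, with a median of 0.02. Of 11 genes of the LXR and oxysterol response, which senses excess sterol, 8 passed the filter, with 1 above and 2 below and a median of -0.13. The one above was NR1H3, which encodes LXR alpha, with counts of 50, 58 and 82 and a ratio of 0.65 (0.13 to 1.19). At 50 nM the first of these lists had 6 of 14 intervals above 0 and 1 below and a median of 0.13, as high as that of the 32 genes.

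Of 27 genes of other fatty acid and glycerolipid synthesis, 25 passed the filter, with 8 above and 8 below and a median of 0.01. ACACB, the acetyl-CoA carboxylase of the mitochondrial surface, was called higher at 1.5-fold, with counts of 48, 51 and 88 and a log2 ratio of 0.81 (0.29 to 1.36). SCD5, a further stearoyl-CoA desaturase, was called lower, with counts of 102, 79 and 55 and a ratio of -0.94 (-1.45 to -0.46), in the opposite direction to SCD. Of 19 genes of fatty acid oxidation, 17 passed, with 2 above and 4 below and a median of 0.0009. CPT1A, the carnitine acyltransferase that admits fatty acids to mitochondria, was called lower, with counts of 1691, 1368 and 1153 and a ratio of -0.61 (-0.72 to -0.50). Of the cell type markers, FLT3 was called higher, with counts of 6304, 9012 and 11181 and a ratio of 0.77 (0.73 to 0.81).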

How the data were processed

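RNA of Molm13 cells was measured in 3 libraries, 1 each for DMSO, 50 nM and 100 nM pyrvinium at 6 h, grouped by the sample titles. One label gives the higher dose with another unit, and the title's 100 nM was used. The authors made stranded mRNA libraries, ran Rsubread against hg19, and deposited raw read counts for each Entrez gene. The strand setting of counting is not given in the sources used here. A further deposited table of the authors' EBSeq comparisons (posterior probabilities, fold changes and means) was not used.

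Genes needed 10 counts in 1 or more libraries (12879 genes), and edgeR 4.0.16 (R 4.3.3) gave TMM library sizes. To each count 0.5 was added for log2 ratios. Clopper-Pearson intervals (scipy 1.17.1) are unadjusted and, like the Wilson intervals, cover counting error only. A gene was called when its interval lay beside 0 and its ratio reached 1.5-fold, or 2-fold where stated. No p-value compares the conditions without an assumed spread. A count of 3 is 0.124 to 0.133 CPM. The procedure was tested on simulated data with counting error alone, which cannot speak to the spread between cultures.

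The 32 genes and the lists were chosen with earlier results of these data known. All 32 are described, and of the other lists those genes are named that were called at 1.5-fold for 100 nM against DMSO and reached 50 counts in the higher of both libraries. Gene positions are from the deposited files, and promoter windows are RefSeq's on GRCh38.p14. Alternatives were other library scalings (DESeq2 1.42.0, totals, or TMM leaving out mitochondrial transcripts), 5 counts added, other filters and folds, an assumed spread, and means or subsets of genes.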

Additional observations from a re-analysis of the deposited data

How the results depend on the processing

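With 1 library per condition the counting intervals hold no spread between cultures, and reads of overlapping antisense genes, as for ACAT2, could not be told apart. No paired analysis was possible because each condition has 1 library. Under another scaling or filter no log2 value of the 32 genes, their medians or sums moved by more than 0.01, and with 5 counts added by more than 0.03. Of the values of single genes, 567 kept the side of 0 on which their interval lay, or still held 0, and 9 came to have an interval beside 0. The 5 added counts did not enter the intervals, so under that setting the side of 0 could not change. All 60 ratios of summed counts kept their side.

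The number of genes called at 1.5-fold, 1 higher at each dose against DMSO, depended on the fold and the assumed spread. With a threshold 25% above 1 it was 7 higher and 3 lower at 100 nM (11.5% and 8.89% of all tested genes), 4 higher and 1 lower at 50 nM (5.75% and 4.78%), and 1 higher for 100 nM against 50 nM (3.27%). At 2-fold it was 0 at both doses. An assumed coefficient of variation of 0.1 (edgeR, exact test) left 1 gene at 100 nM and 0 at 50 nM, of 244 and 36 called among all tested genes, and 0.2 left 0 at both, of 12 and 0. Without a fold or adjustment, p was at most 0.05 for 4 of the 32 genes at 100 nM and 2 at 50 nM under 0.1, and for 0 under 0.2. Taking means, the fatty acid branch stood at 0.04 at 100 nM, and the other 107 medians moved by less than the typical counting error of their genes.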
